A study of Saccharomyces cerevisiae with 6 samples.

Results

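The 5.8S gene and the internal transcribed spacer that follows it, ITS2, make up 390 of the 6858 positions of the yeast 35S rRNA gene at which RNA polymerase I (Pol I) was mapped. The positions were chosen by their place alone: positions 2862 to 3019 of the 35S gene are the 5.8S gene (158 positions) and positions 3020 to 3251 are ITS2 (232 positions), counted from the first position of the table. They lie on the minus strand at chrXII:464319-464708 of the R64 build, in the rDNA copy annotated as RDN37-2. The 5.8S positions coincide with the annotated gene RDN58-2 at both ends, and ITS2 ends where the 25S gene RDN25-2 begins.

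NET-Seq, which purifies engaged polymerase and sequences the 3′ end of its nascent RNA, was performed on 3 cultures of a WT *Saccharomyces cerevisiae* strain and 3 cultures of *rpa190-F1205H*. The mutant has a phenylalanine-to-histidine substitution in the trigger loop of Rpa190, the largest Pol I subunit, carried on a plasmid in cells whose chromosomal *RPA190* was replaced by *HIS3*. In the mutant strain the second largest subunit, Rpa135, had a C-terminal hemagglutinin tag for the immunoprecipitation, and WT was described as the appropriate parent strain. All cultures were grown at the same temperature and harvested at the same density, so the comparison asks how occupancy was distributed along the 5.8S gene and ITS2 in the 2 strains.

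Pol I synthesizes the 18S, 5.8S, and 25S rRNAs as a single transcript. After cleavage in ITS1, the 5.8S and 25S sequences stay joined through ITS2 in the 27S precursors. Endonucleolytic cleavage within ITS2 then separates a 3′-extended 5.8S precursor from the 25S precursor, and the exosome and other exonucleases trim the first of these back to the mature 5.8S end, passing through forms that keep a few nucleotides of ITS2. In the ribosome, 5.8S rRNA pairs with 25S rRNA in the large subunit. An RNA 3′ end in the 5.8S gene or in ITS2 can therefore belong to nascent RNA, to mature rRNA, or to a processing intermediate, and the values do not tell these apart.

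The sequence across the junction is shown because the highest WT values of both regions stood there. It covers chrXII:464531-464570, minus strand, 20 nucleotides from each side, with the 3 positions that were listed at 0 in every library in capitals.
junction: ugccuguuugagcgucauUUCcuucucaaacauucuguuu
The first 20 nucleotides of the 5.8S gene, chrXII:464689-464708, are shown for the rises at the start of the gene, with positions 2865 to 2870 in capitals.
start of 5.8S: aaaCUUUCAacaacggaucu
The next windows are those of the positions with the largest changes or the highest mutant values inside each region. Each runs from 19 nucleotides before the named position to 10 after it, with the last 10 nucleotides of the RNA that ends at that position in capitals, so that the final capital is the nucleotide last incorporated.
position 2911: gcaucgaugaAGAACGCAGCgaaaugcgau
position 2983: gaacgcacauUGCGCCCCUUgguauuccag
position 2999: ccuugguauuCCAGGGGGCAugccuguuug
position 3078: uggaguuaacUUGAAAUUGCuggccuuuuc
position 3116: uuuuuuuuccAAAGAGAGGUuucucugcgu
position 3136: uucucugcguGCUUGAGGUAuaaugcaagu
position 3150: gagguauaauGCAAGUACGGucguuuuagg
position 3158: augcaaguacGGUCGUUUUAgguuuuacca
position 3225: acguuaucgaUAAGAAGAGAgcgucuaggc
position 3235: uaagaagagaGCGUCUAGGCgaacaauguu

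Values are RPM, the reads with their 3′ end at a position in each 1000000 reads, for which the authors set the sum over positions 1 to 6739 to the same 1000000 in every library. Because that sum was fixed, each value is a share of the reads of the gene, whatever RNA they came from. A gain in one stretch is matched by a loss in another, and total occupancy was not measured. In a bulk culture, more polymerases on a gene and more active genes also cannot be told apart. The libraries held 2028349 to 3687549 reads over the 35S gene. The 5.8S gene took 3.18 to 3.32% of them in WT and 2.24 to 2.39% in the mutant, and ITS2 took 0.701 to 0.854% in WT and 1.75 to 1.78% in the mutant. ITS2 was thus read from 16461 to 26381 reads in WT, with a median of 25 to 38.5 reads per position, against 55077 to 65737 reads and a median of 134.5 to 156 in the mutant, so single WT positions there carry more counting error. At a position listed at 0, a count of 0 allows up to 3 reads, 0.814 to 1.48 RPM depending on the library. This bound is for zeros that come from counting, and how the zeros next to the junction arose was not tested.

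On the deposited scale, the mean values of the 2 whole regions moved in opposite directions. Averaged over its positions, ITS2 held 34.0 ± 3.42 RPM in WT (SD, n = 3) and 75.9 ± 0.864 RPM in *rpa190-F1205H*, a log2 ratio of 1.16. The 5.8S gene held 206 ± 4.79 RPM in WT and 146 ± 4.75 RPM in the mutant, a log2 ratio of -0.50. In neither region did the library means of the 2 strains overlap. Within each library, log2 of the ITS2 mean over the 5.8S mean went from -2.61 ± 0.15 in WT to -0.94 ± 0.05 in the mutant, and this difference of 1.66 does not depend on how the libraries were scaled. With 10 positions at each end of both regions left out, hereafter the interiors, the difference was 2.24. A two-sided exact permutation test gave p = 0.1 for each of these comparisons, the smallest p that 3 libraries against 3 allow, and 0.125 after Benjamini-Hochberg adjustment over the 10 region comparisons made.

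**Figure D1:**
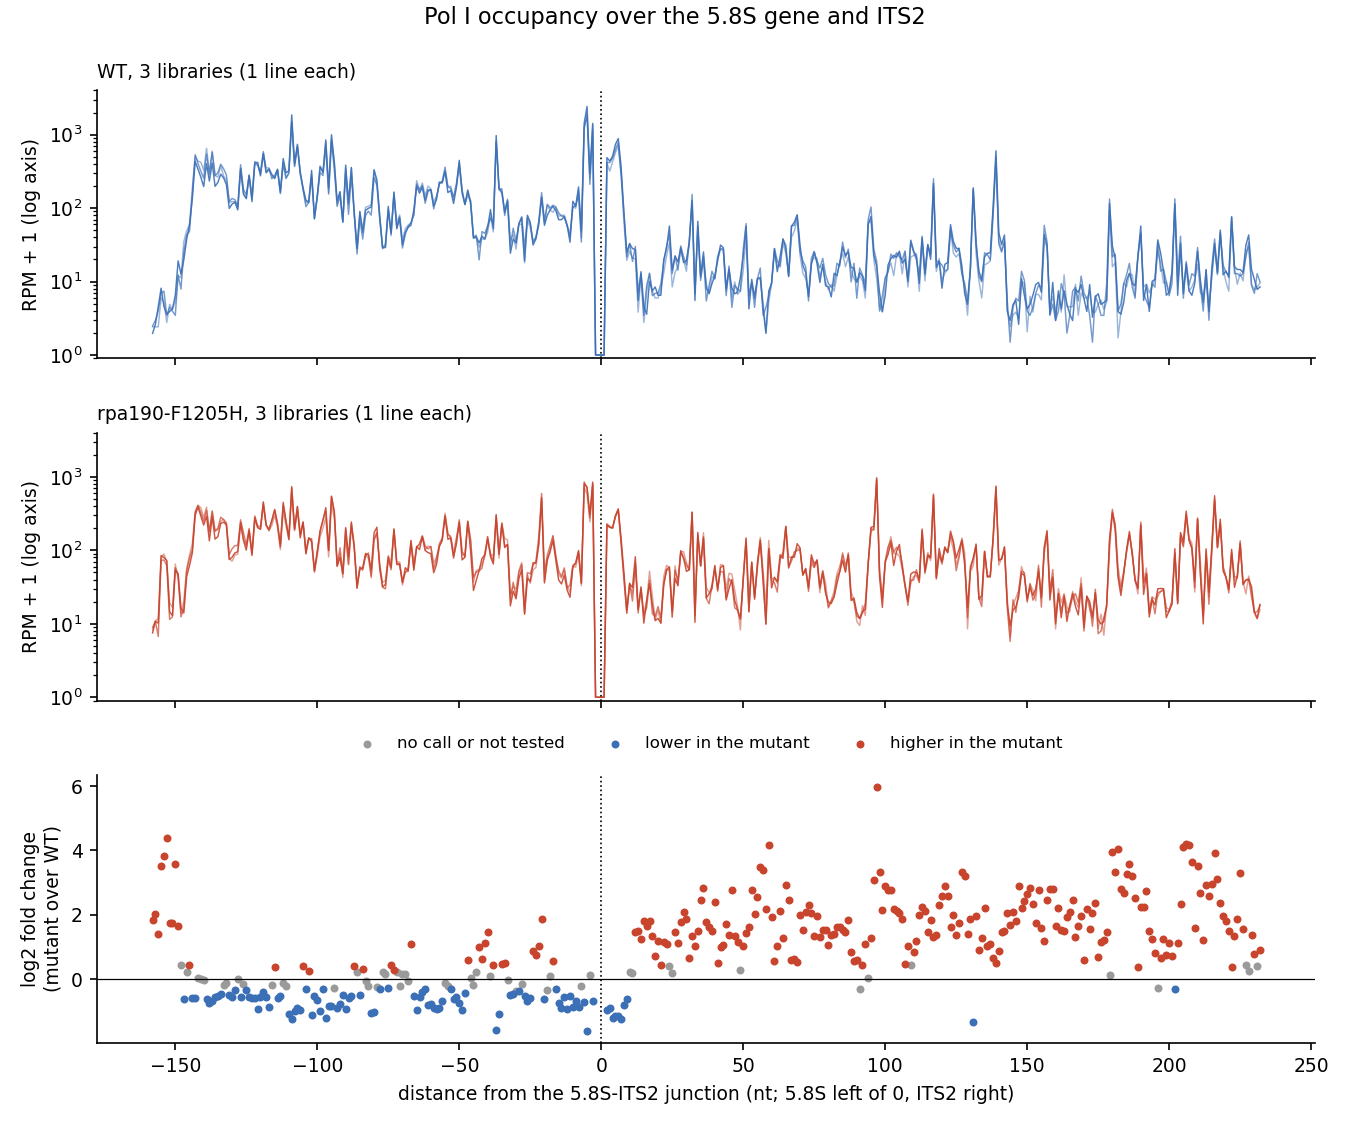
RPM + 1 on a log axis at each position of the 5.8S gene (left of 0) and ITS2 (right of 0) against distance from their junction in nucleotides, 1 line per library for WT (top) and *rpa190-F1205H* (middle), and the limma log2 fold change at each position, colored by call (bottom). Positions that rose in the mutant fill ITS2 from 12 nt past the junction, whereas positions that fell lie over most of the 5.8S gene and at the first positions of ITS2.

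Each position was compared between strains with limma on log2(RPM + 1), and a position was called higher or lower when its Benjamini-Hochberg adjusted p over all 6843 tested positions was under 0.05. In ITS2, 208 of 231 tested positions were higher in the mutant and 10 were lower, where 40.6% of all tested positions of the 35S gene were called higher and 33.9% lower. Among spacer positions alone the shares were 82.5% and 4.42%, close to those of ITS2, 90.0% and 4.33%. The median log2 fold change was 1.58 in ITS2 and 0.05 over all tested positions. In the 5.8S gene, 32 of 156 tested positions were higher and 87 were lower, 20.5% and 55.8%, against 29.2% and 41.7% of positions in the 18S and 25S genes, and the median was -0.36. At 220 positions of ITS2 and 121 of the 5.8S gene the 3 values of one strain did not overlap those of the other, 95.2% and 77.6%, where 78.1% of all tested positions, 85.8% of spacer positions, and 75.9% of positions in the 18S and 25S genes had no overlap.

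These directions are relative to the rest of the 35S gene. When the libraries were rescaled to the same total over all spacers, the median log2 fold change over all positions became -1.48. On this scale 97 positions of ITS2 were higher and 63 lower, and the 5.8S counts became 8 and 144. Over all 6843 tested positions, 792 were higher and 5376 lower. The mean log2 ratio of ITS2 was then -0.40, against -2.07 for the 5.8S gene, so that ITS2 was below WT on this scale but fell less than the 5.8S gene.

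The rises of ITS2 lay in its interior. Of the 212 interior positions, 201 were higher and 2 were lower in the mutant, whereas of the 9 tested positions among the first 10, none was higher and 8 were lower. The switch was sharp. Positions 3021 to 3028 were all lower, positions 3029 and 3030 were not called (log2 fold changes of 0.20 and 0.19), and from position 3031 on, positions were higher with few exceptions. Of the last 10 positions, next to the 25S gene, 7 were higher and none was lower. The interior mean was 21.6 ± 2.07 RPM in WT and 74.2 ± 0.858 RPM in the mutant (log2 ratio 1.78), and the mean of the first 10 positions was 317 ± 37.3 RPM and 150 ± 2.52 RPM (log2 ratio -1.08). Those first 10 positions took 40.2% ± 1.41 of ITS2 reads in WT and 8.52% ± 0.06 in the mutant, a fall of 31.7 percentage points (exact permutation p = 0.1, 0.125 adjusted over the 10 comparisons), with 95% Wilson intervals of at most 0.744 points on each side of a library's share, which cover counting error only.

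On both sides of the junction, 3 positions separated 2 sets of high values. Positions 3018 and 3019, the last of the 5.8S gene, and 3020, the first of ITS2, were at 0 in all 6 libraries although positions within 3 nucleotides of them averaged up to 1357 RPM over the 6 libraries. The same held around the 3′ ends of the 18S and 25S genes, and together these 3 ends accounted for 9 of the 15 positions of the 35S gene at 0 in every library. How these zeros arose was not tested.

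On the 5.8S side, position 3015, the highest of the 5.8S gene in WT, held 1902, 1811, and 2421 RPM in the WT libraries and 578, 705, and 724 RPM in the mutant (log2 fold change -1.61 ± 0.14 SE, limma adjusted p = 1.3e-05). Every mutant library was below every WT library. Position 3017, 2 nucleotides further and the last one read before the zeros, held 1360, 1143, and 1425 RPM in WT and 802, 790, and 849 RPM in the mutant, a smaller fall of 0.68 on the log2 scale. Between them, position 3016 was not called, with 253, 210, and 298 RPM in WT and 244, 274, and 310 RPM in the mutant. That position was lower in the mutant after rescaling to the spacer total (log2 fold change -1.43). Position 3014 averaged 1303 ± 121 RPM in WT and 796 ± 68.1 RPM in the mutant, the second highest mean of the mutant in the 5.8S gene. The order of the 4 positions thus differed, since position 3015 led the others in WT and was below positions 3014 and 3017 in the mutant mean.

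On the ITS2 side, values peaked at position 3025 and dropped within 3 nucleotides in both strains. The value at position 3025 was 702, 780, and 884 RPM in WT and 341, 357, and 367 RPM in the mutant (log2 fold change -1.14 ± 0.11 SE, adjusted p = 2e-05). Its neighbor 3024 held 571, 629, and 738 RPM in WT and 284, 293, and 295 RPM in the mutant, and position 3026 held 278, 290, and 363 RPM in WT and 123, 123, and 144 RPM in the mutant. All WT values were above all mutant values at each of these positions, which was a condition for naming position 3026. By position 3028 the means had dropped to 21.0 RPM in WT and 13.4 RPM in the mutant. An RNA that starts at the 5.8S gene and ends at positions 3021 to 3026 would be a 5.8S rRNA with a few extra nucleotides, a form in which trimming intermediates are known. The table holds no 5′ ends, and whether the reads came from such RNA or from nascent RNA was not tested.

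The step across the junction was of similar mean size in the 2 strains over 20 positions on each side. Within each library, log2 of the mean over the first 20 positions of ITS2 over the mean over the last 20 of the 5.8S gene was -0.90 ± 0.12 in WT and -0.97 ± 0.09 in the mutant. The difference was -0.07 ± 0.15 (SD of the 2 strains combined), with an exact permutation p of 0.5. Both windows fell, from 306 to 172 RPM on the 5.8S side and from 164 to 87.6 RPM on the ITS2 side. With 10 positions on each side the difference was -0.15 (exact permutation p = 0.2). With 50 positions on each side the difference was 0.34. With medians over the 20 positions in place of means, which give the few high positions less weight, it was 1.18. In both of these settings the strains did not overlap (exact permutation p = 0.1 each), so the similar size holds only for means over the shorter windows.

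**Figure D2:**
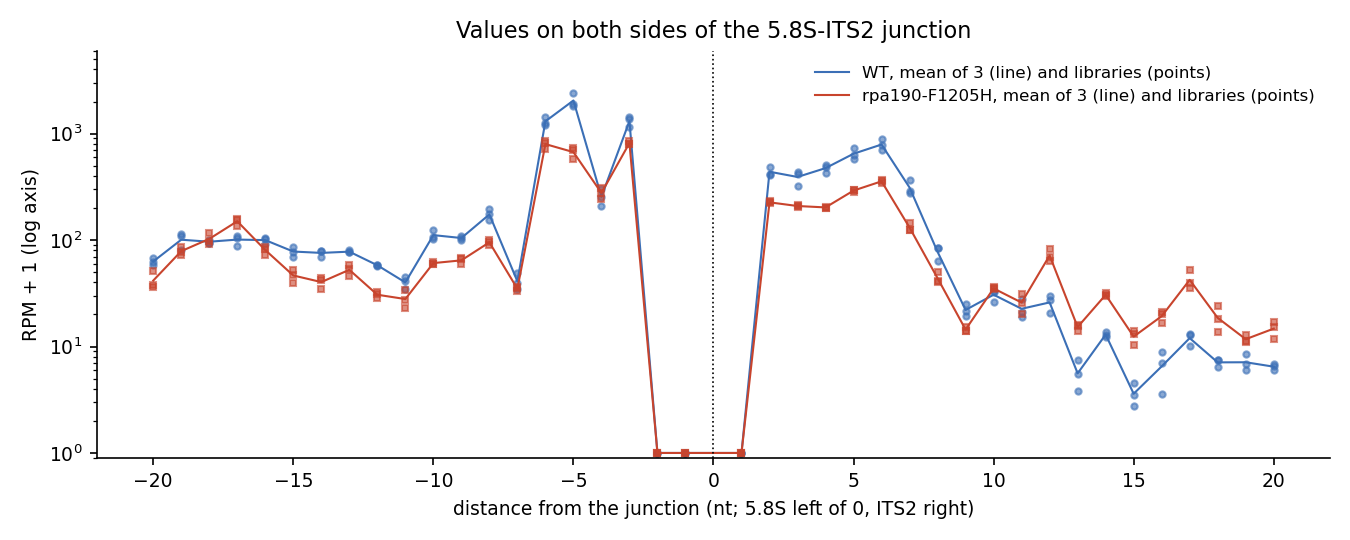
RPM + 1 on a log axis at the 20 positions on each side of the junction, with the strain mean as a line and each library as a point. WT (blue) is above the mutant (red) from 3 to 8 nt before the junction, apart from overlap at 2 positions, and from 2 to 9 nt after it, the 3 positions next to the junction are at 0 in all libraries, and the order is turned from 12 nt into ITS2.

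Across ITS2, 8 bins of 29 positions showed how uneven the gain was. In WT, the first bin held 119 ± 14 RPM per position, and the rest held between 7.27 ± 0.671 RPM (bin 6) and 50.4 ± 5.78 RPM (bin 5). In the mutant, the first bin held 75.4 ± 1.24 RPM and was below bins 4, 5, and 8, at 97.2 ± 2.25, 111 ± 4.95, and 99.8 ± 3.85 RPM. All 7 later bins gained, with log2 ratios from 1.14 in bin 5 to 2.59 in bin 8. Bin 6 was the lowest in both strains and still rose to 32.6 ± 1.06 RPM. Bin 4 contains position 3116, at 936 RPM in the mutant mean, and its place above bin 1 in the mutant rests on that position. Bin 5 contains positions 3136 and 3158, the 2 highest of the WT interior, and bin 8 adjoins the 25S gene.

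Within the reads of bins 2 to 8, bin 5 took 33.0% ± 1.44 in WT and 20.9% ± 0.729 in the mutant, a loss of 12.1 points. Bin 8 gained 7.96 points, from 10.8% to 18.8%, and bin 4 gained 5.01 points, from 13.3% to 18.3%. Bin 7 held 12.2% and 12.1% (exact permutation p = 0.8). For bins 4, 5, and 8 the exact permutation p was 0.1, and 0.13 adjusted over 13 comparisons that were chosen after the values were seen. These shares do not depend on the scale of the libraries.

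**Figure D3:**
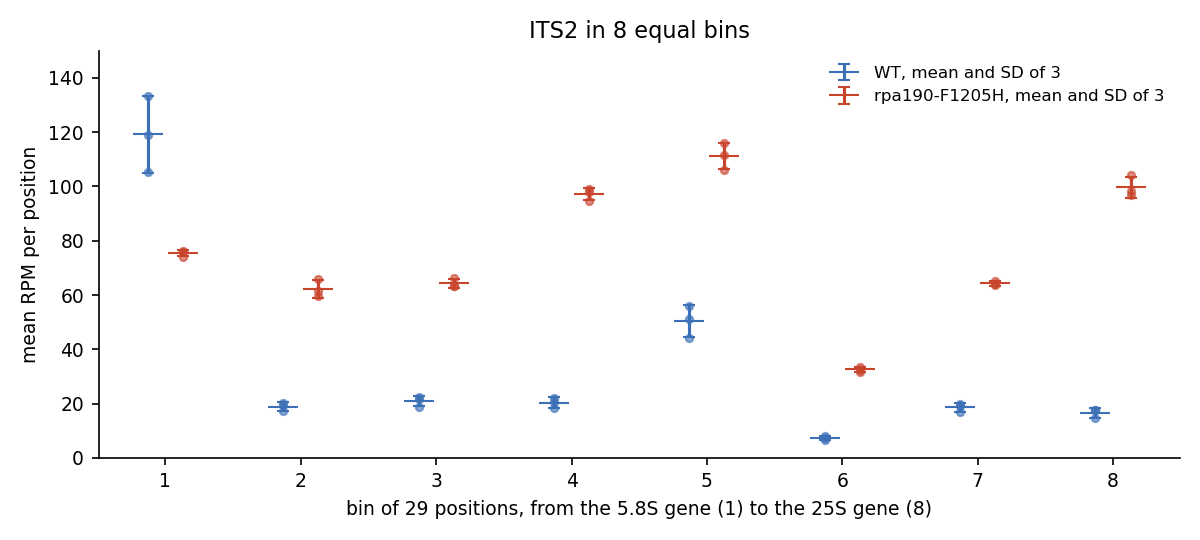
Mean RPM per position in each of 8 bins of 29 positions of ITS2, from the 5.8S gene (bin 1) to the 25S gene (bin 8), with points for libraries and bars for the mean and SD of 3. The WT libraries are higher only in bin 1, and in bins 2 to 8 every mutant library is above every WT library, from 32.6 against 7.27 RPM in bin 6 to 111 against 50.4 RPM in bin 5.

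The largest rise at any tested position of the 35S gene was in ITS2, at position 3116, 97 nucleotides into the spacer. It held 9.94, 17.8, and 15.2 RPM in WT and 905, 929, and 973 RPM in *rpa190-F1205H* (log2 fold change 5.97 ± 0.18 SE, adjusted p = 5.4e-08), and the mutant values were the highest of ITS2. The RNA ending there closes with AAAGAGAGGU, the capitals of its window above. The next largest rises of ITS2 among positions with a mean of at least 10 RPM were at position 3225, from 14.2, 17.8, and 16.5 RPM to 309, 301, and 341 RPM (log2 fold change 4.22), and at position 3078, from 4.26, 5.42, and 6.48 RPM to 136, 104, and 104 RPM (4.18). No overlap between strains was a condition for naming these 3 positions. Of the 231 tested positions of ITS2, 179 had a log2 fold change of at least 1, 81 of at least 2, 22 of at least 3, and 6 of at least 4. By contrast, 5 positions fell by at least 1. Large rises were not particular to ITS2. The upper quartile of log2 fold changes was 2.29 in ITS2, 2.25 in ITS1, 2.65 in ETS1, and 1.62 in ETS2, the spacer at the end of the gene. Over all tested positions it was 0.916.

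Some positions were high in both strains. Position 3158 held 418, 501, and 602 RPM in WT, the highest of the WT interior, and 651, 712, and 751 RPM in the mutant (log2 fold change 0.49 ± 0.14 SE, adjusted p = 0.011). Position 3136 held 200, 250, and 216 RPM in WT and 516, 584, and 567 RPM in the mutant (1.32). Both rises were below the median of ITS2, and after rescaling to the spacer total position 3158 was lower in the mutant (log2 fold change -1.07), whereas position 3136 was not called (-0.24, limma adjusted p = 0.067). Position 3150 was 1 of the 2 interior positions that fell, from 177, 181, and 188 RPM to 60.4, 76.4, and 77.9 RPM (-1.34 ± 0.12 SE, adjusted p = 1.2e-05). The other was position 3221, from 110, 133, and 113 RPM to 91.5, 90.7, and 104 RPM (-0.31, adjusted p = 0.03).

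At some of these WT highs, high mutant values stood a few nucleotides further along the gene. This was described after the values were seen, for the 10 highest local maxima of the WT interior (the highest position within 3 nucleotides on each side), and no test was made because the positions were chosen by their WT level. At all 10, the mean of the next 3 positions relative to the maximum was higher in the mutant than in WT, as can occur for any position picked as a maximum in 1 strain. At 4 of them this gain was over 3 on the log2 scale. Their sequences are given from 14 nucleotides before the WT high to 8 after the highest mutant position of the following 4, with capitals from the first of these to the second.
WT high 3114 to mutant 3116: uuuuuccaaagagaGGUuucucugc
WT high 3150 to mutant 3151: auaaugcaaguacgGUcguuuuag
WT high 3198 to mutant 3199: uuuuuauacugagcGUauuggaac
WT high 3221 to mutant 3225: cguuaucgauaagaAGAGAgcgucuag
At 3 of these 4 the WT high is a G and the mutant position a U. Around position 3150, however, the mutant was higher 4 nucleotides upstream, at 140 RPM at position 3146, than at position 3151, at 118 RPM. At position 3198, WT held 91.6, 132, and 115 RPM and the mutant 98.1, 129, and 140 RPM, which overlapped, but at position 3199 WT held 14.9, 20.7, and 29.5 RPM and the mutant 317, 361, and 331 RPM. At position 3151, WT held 23.1, 35.5, and 31.1 RPM and the mutant 122, 114, and 118 RPM, so that the pair 3150 and 3151 changed in opposite directions. The pattern was not general: within 4 nucleotides on either side of the 10 WT maxima, the highest mutant position was the same position at 4, downstream at 3, and upstream at 3, position 3150 among these last.

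**Figure D4:**
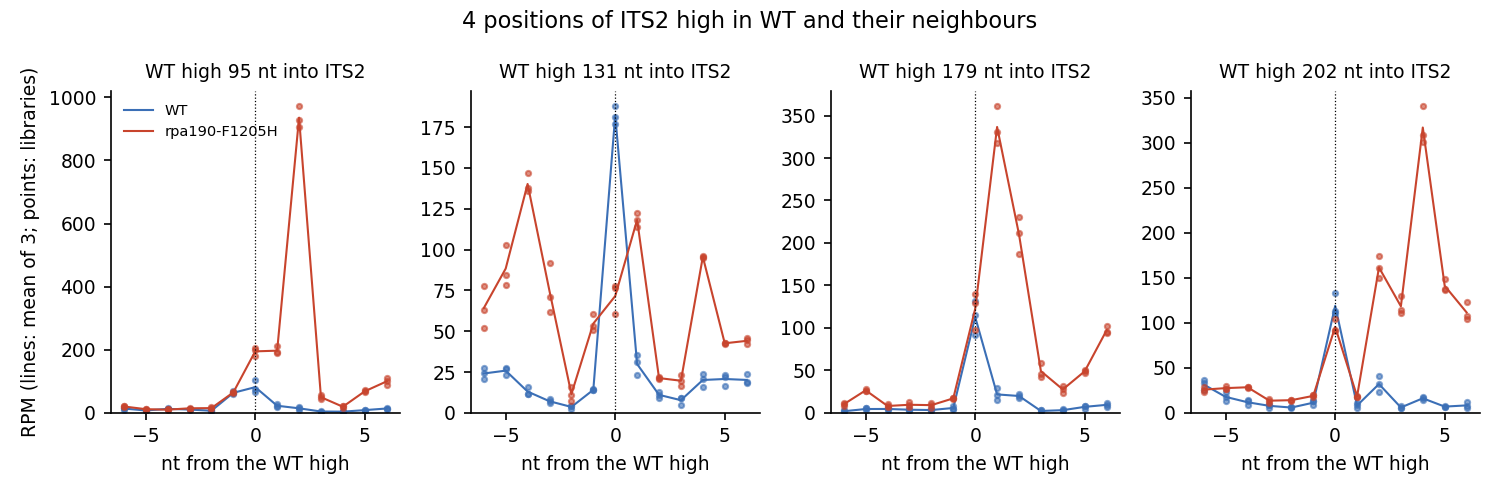
RPM (linear axes that start at 0 and differ between panels) from 6 nt before to 6 nt after the 4 WT highs named in the text, with the strain mean as a line and each library as a point. In the first panel the mutant reaches 936 RPM 2 nt after the WT high, and in the second the mutant is below WT at the WT high and above it 1 nt later.

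Over the whole interior, the level at each position in the mutant was most like the WT level at the same position (Spearman correlation of log2 levels 0.73 over 212 positions). It was 0.37 with the WT position 1 nucleotide before and 0.20 with the WT position 1 nucleotide after. Within WT the 2 directions gave 0.46 and 0.47, as they must nearly do, and in the 5.8S interior they were alike between strains too (0.57 and 0.57 over 138 positions). In the ITS1 interior they were 0.41 and 0.37 over 341 positions. Neighboring positions share libraries and base composition, so these correlations are descriptions without a test.

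The profile of ITS2 also differed more between strains than that of the 5.8S gene. Spearman correlations between pairs of libraries over the ITS2 interior were 0.940 to 0.946 within WT, 0.979 to 0.984 within the mutant, and 0.677 to 0.739 between strains. Over the 5.8S interior they were 0.985 to 0.989, 0.981 to 0.988, and 0.878 to 0.906. Over the ITS1 interior they were 0.913 to 0.928, 0.977 to 0.983, and 0.666 to 0.706, so the low values between strains were not particular to ITS2. The lower depth of WT ITS2 moved with the lower agreement within WT, and its part in the values between strains was not tested. Reads of ITS2 were spread over more positions in the mutant, where 33 to 36 positions held 50% of them against 9 or 10 in WT, and the 5 highest positions of each library took 36.1% ± 1.53 in WT and 17.4% ± 0.822 in the mutant. Most of that contrast came from the start of the spacer, since in the interior alone the difference in the share of the top 5 was 6.02 points in place of 18.8.

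ITS2 was then compared with the spacer on the other side of the 5.8S gene. The ITS1 interior rose from 17.0 ± 1.59 to 56.5 ± 1.25 RPM, a log2 ratio of 1.73 against 1.78 in the ITS2 interior. Within each library the log2 ratio of the ITS2 interior to the ITS1 interior went from 0.34 ± 0.02 in WT to 0.39 ± 0.03 in the mutant, a difference of 0.05 ± 0.04 (exact permutation p = 0.2, 0.22 adjusted over the 10 comparisons). Against the ETS1 interior, the spacer at the start of the gene, the difference was 0.05, with an exact permutation p of 0.4. With 3 libraries against 3, these p values cannot show whether the spacers moved alike. With medians over positions in place of means, the ITS2 to ITS1 ratio went from 0.34 ± 0.03 in WT to 0.68 ± 0.04 in the mutant, a larger difference of 0.34 without overlap between strains (exact permutation p = 0.1). With the whole of both internal spacers, first positions included, the ITS2 to ITS1 difference was -0.55.

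The 5.8S gene fell over both parts of its length. The first 79 positions of the gene dropped from 243 ± 5.07 to 169 ± 6.63 RPM and the other 79 from 170 ± 7.99 to 123 ± 3.11 RPM, log2 ratios of -0.53 and -0.46. On the log2 scale, 11 positions fell by at least 1. Positions 3015 and 2911, both among the highest of the gene in WT, belonged to them. Their means went from 2045 to 669 RPM and from 1603 to 678 RPM, so a few high positions carried much of the fall in RPM. Relative to the 25S gene, which fell from 185 to 164 RPM, the 5.8S gene lost more: log2 of the 5.8S mean over the 25S mean went from 0.15 ± 0.02 in WT to -0.17 ± 0.05 in the mutant, a difference of -0.33 (exact permutation p = 0.1, 0.125 adjusted over the 10 comparisons). Against the 18S gene the difference was -0.50. Both genes yield mature rRNA, which the study describes as contaminating these samples, and a change in such RNA cannot be told apart here from a change in nascent RNA.

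Away from the junction, the largest falls of the 5.8S gene were at positions 2983 and 2911. Position 2983 held 800, 795, and 971 RPM in WT and 256, 295, and 306 RPM in the mutant (log2 fold change -1.58 ± 0.12 SE, adjusted p = 4.9e-06), and position 2911 held 1440, 1511, and 1860 RPM in WT and 591, 705, and 738 RPM in the mutant (-1.24). No overlap between strains was a condition for naming both as falls. Position 2911 remained among the 3 highest positions of the gene in both strains. In contrast, position 2999, 20 nucleotides before the mature end and named after its values were seen, rose from 141, 161, and 139 RPM to 490, 595, and 522 RPM (1.86 ± 0.11 SE, adjusted p = 1.2e-06). It was the largest rise of the 5.8S interior, where 22 of 138 positions were higher and 81 were lower.

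The start of the 5.8S gene moved in the direction opposite to the rest of it. All of its first 10 positions were higher in the mutant, and their mean went from 4.28 ± 0.592 RPM in WT to 38.0 ± 2.35 RPM in the mutant, a log2 ratio of 3.15. Position 2867 held 1.77, 2.47, and 2.59 RPM in WT and 69.2, 61.5, and 71.9 RPM in the mutant (log2 fold change 4.39 ± 0.12 SE, adjusted p = 4e-08), and position 2866 rose from 4.74 ± 1.48 to 80.0 ± 7.79 RPM. Position 2870 held 4.26, 2.47, and 5.51 RPM in WT and 64.1, 57.1, and 52.9 RPM in the mutant. No overlap between strains was a condition for naming positions 2866, 2867, and 2870. With position 2865, which rose from 6.0 to 78.2 RPM, these are the C, U, U, and A among the capitals of the sequence at the start of the gene, and positions 2868 and 2869 between them reached only 14.1 and 13.0 RPM. By position 2872 the strains overlapped, at 6.90 to 11.7 RPM in WT and 11.4 to 15.5 RPM in the mutant. The WT values at position 2867 were near the floor of the WT libraries, 0.972 to 1.48 RPM. With a pseudocount of 10, the log2 fold changes at positions 2866, 2867, and 2870 were 2.61, 2.66, and 2.28, against 3.84, 4.39, and 3.58.

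A low start in WT and a gain there in the mutant was also found in the other genes. The first 10 positions of the 25S gene rose from 7.13 to 34.4 RPM (log2 ratio 2.27) and those of the 18S gene from 26.8 to 67.5 RPM (1.33). Within each library, log2 of the first 10 positions of the 5.8S gene over those of the 25S gene went from -0.74 ± 0.23 in WT to 0.15 ± 0.04 in the mutant, a difference of 0.89, and the difference against the 18S gene was 1.82. Each had an exact permutation p of 0.1, 0.13 adjusted over the same 13 later comparisons. At the other end, the last 10 positions of the 5.8S gene fell from 534 ± 63.8 to 281 ± 19.5 RPM (log2 ratio -0.93), and the corresponding ends of the 25S and 18S genes fell by 0.70 and 0.73 on the log2 scale.

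The last incorporated nucleotide was compared next. In the ITS2 interior, RNAs ending in A or G made up 63.3% ± 0.395 of reads in WT and 50.1% ± 1.05 in the mutant, a fall of 13.2 points (exact permutation p = 0.1, 0.125 adjusted over the 10 comparisons). Over all of ITS2, first positions included, the direction was turned, with a rise from 38.8% ± 1.22 to 45.7% ± 0.956 (6.92 points, exact permutation p = 0.1). In the interior, A accounted for 40.0% of WT reads and 31.7% of mutant reads and G for 23.3% and 18.3%, whereas U rose from 25.4% to 34.9% and C from 11.3% to 15.0%. The interior itself is 23.6% A, 24.5% G, 36.8% U, and 15.1% C. The mutant shares of A, U, and C were thus nearer to those of the sequence than the WT shares, and that of G was further away. A few positions carried much of this. With the same 5 highest positions left out of every library, an alternative added after the values were seen, the fall was 6.0 points, and with each library's own 5 highest left out it was 0.39 points (exact permutation p = 0.8). The gains were less distinct by position, with median log2 fold changes of 1.95 at C, 1.68 at U, 1.54 at A, and 1.46 at G.

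The purine content of the last 10 nucleotides, about the part of the RNA held against the template in the polymerase, ran the other way. In the ITS2 interior, positions with 7 to 10 purines there (31 positions) rose from 33.4 ± 3.19 to 133 ± 2.97 RPM, those with 4 to 6 (128 positions) from 20.5 ± 2.11 to 71.0 ± 0.732 RPM, and those with 0 to 3 (53 positions) from 17.4 ± 1.67 to 47.2 ± 0.138 RPM. The median log2 fold changes were 2.09, 1.69, and 1.52. Positions 3116 and 3225, with AAAGAGAGGU and UAAGAAGAGA, belong to the first of these groups. In the 5.8S interior the 3 groups were also ordered by level in both strains, at 300 ± 11.4, 173 ± 5.43, and 160 ± 5.11 RPM in WT, and their median log2 fold changes were -0.34, -0.42, and -0.48, ordered as in ITS2 but over a narrower range. The log2 ratios of the 5.8S group means were -0.45, -0.46, and -0.46, against 1.99, 1.80, and 1.44 in ITS2. The first ITS2 group mean includes position 3116, at 936 RPM in the mutant, and the order of the first 2 ITS2 ratios rests on that position. The medians give it less weight. Overlapping windows share nucleotides, and the positions of a group are not replicates, so no test was made of these trends.

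ITS2 also holds 2 runs of U of 7 or 8 nucleotides, neither of which was a high point. Over the 8 U at positions 3097 to 3104 the mean rose from 13.5 ± 1.46 to 39.6 ± 3.25 RPM, and over the 7 U at positions 3182 to 3188 from 5.39 ± 0.217 to 20.9 ± 1.70 RPM. Both means were below that of the ITS2 interior in the same strain. Position 3116 lies 12 nucleotides after the first of these runs, which opens the window printed above.

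The stretch of ITS2 that the study's 27S Northern probe pairs with was examined on its own, since it marks where precursor RNA was detected. It covers positions 3216 to 3235, chrXII:464335-464354 on the minus strand, and occurs once in the 35S gene.
27S probe target: UAAGAAGAGAGCGUCUAGGC
Its mean rose from 17.7 ± 1.86 to 108 ± 5.18 RPM, a log2 ratio of 2.60 against 1.78 for the ITS2 interior. It includes position 3225 and ends at position 3235, which held 28.4, 37.0, and 32.1 RPM in WT and 466, 492, and 555 RPM in the mutant (log2 fold change 3.92 ± 0.12 SE, adjusted p = 5.8e-08). The mutant value at position 3235 was the fourth highest of ITS2, and that position was named after its values were seen.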

How the data were processed

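NET-Seq values for 3 WT and 3 *rpa190-F1205H* libraries were analysed from 1 table of the 35S gene. The authors removed duplicates by molecular identifier, trimmed, aligned, and counted 3′ ends. The submitters' processing notes name the R64 build, bedtools 2.26.0, cutadapt 1.12, and STAR 2.7.1a. The authors deposited RPM whose sum over positions 1 to 6739 is 1000000 in each library. How reads were assigned among rDNA copies is not given in the sources used here. The authors' ratio and p-value columns were not used.

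Dividing by the smallest value above 0 gave whole reads, to within 0.02, for 99.98% of 41148 values. Sequences and positions came from the table's base column. For each of the 6843 positions above 0 in some library, log2(RPM + 1) was fitted on strain alone (limma 3.58.1, R 4.3.3). Other settings tried were a pseudocount of 0.1 or 10, a mean of at least 10, edgeR 4.0.16 and DESeq2 1.42.0 on recovered reads, unequal-variance tests, 3 rescalings, the replicate block, and leaving out each library. Model fits were tested on simulated data. Region values used two-sided exact permutation tests in Python 3.11.15, with Benjamini-Hochberg adjustment over 10 comparisons. The replicates were separate cultures.

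The named positions were, in each region, the 3 highest of each strain and the 3 largest rises and falls past the threshold with a mean of at least 10 RPM and no overlap, the 6 positions on each side of the junction, and the probe target. Others were named after their values were seen. The members, lists, and tests were chosen with earlier results of these data known.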

Additional observations from a re-analysis of the deposited data

How the results depend on the processing

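Rescaling decided most changes. With libraries set to the same spacer total, the mean log2 ratio of ITS2 was -0.40 and that of the 5.8S gene -2.07, and with the same median position they were 0.98 and -0.68. Counts of positions higher and lower were 97 and 63 in ITS2 and 8 and 144 in the 5.8S gene at the same spacer total, where all 6843 tested positions gave 792 and 5376. At the same ITS2 interior total they were 76 and 81 in ITS2 and 6 and 145 in the 5.8S gene, where all tested positions gave 641 and 5551. Under these 2 scalings, in order, position 3016 had log2 fold changes of -1.43 and -1.65, position 3136 of -0.24 and -0.46, and position 3158 of -1.07 and -1.29. At the same median position, position 3158 lost its call, with a log2 fold change of 0.31. With medians over positions, the log2 ratios were 1.86 for ITS2 and -0.35 for the 5.8S gene, and the differences were 2.22 for ITS2 over 5.8S, 1.18 for the junction step, and 0.34 for ITS2 over ITS1. Other windows gave 1.78 for ITS2 without its ends, 0.34 for the junction step over 50 positions, -0.55 for whole ITS2 over ITS1, -27.4 points for the first 6 positions of ITS2, -6.02 points for the top 5 of the interior, and -25.7 points for the top 10. The purine share changed by 6.92 points over all of ITS2, 4.98 points over the last 10 nucleotides, -0.39 points without each library's 5 highest positions, and -6.0 points without the same 5. Leaving out each library gave 206 to 212 higher and 9 to 12 lower positions in ITS2, and 28 to 32 higher and 73 to 85 lower in the 5.8S gene, and no call at a position named by the rule was lost. edgeR called 204 and 10 in ITS2 and DESeq2 201 and 10. Deviations of same-numbered libraries correlated at 0.127, 0.0274, and 0.201, and those of the other pairs at -0.158 to 0.0298. The main fit did not pair libraries by number, and whether they were paired is not settled by these values. The replicate block gave 211 and 12 in ITS2 and 35 and 89 in the 5.8S gene. Depth limits single WT positions of ITS2, at a median of 25 to 38.5 reads.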
